A study of Drosophila melanogaster with 9 samples.

Results

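Delaminating posterior cells of the fly wing disc were compared with posterior cells that carried the same transgenes and no reporter signal. The comparison used 6 of the 9 arrays of the series, 3 of each population, chosen by their titles. All animals were larvae about 8 days old of the w1118 background. In the posterior compartment the en-gal4 driver, active where engrailed is expressed, produced p35 (a baculovirus protein that blocks caspases), RFP and a double-stranded RNA against asp, which encodes a spindle pole protein needed for mitosis. Every disc also held an MMP1-GFP reporter of a secreted matrix metalloproteinase. Posterior cells were RFP-positive and MMP1-GFP-negative, and delaminating cells were positive for both. The anterior cells of the remaining 3 arrays lacked both fluorescent proteins and served here as a reference level only. Discs were dissociated with trypsin and sorted, so a delaminating cell is defined by reporter fluorescence and not by its position in the disc.

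The wing disc is an epithelial sac whose cells are held by apical junctions, a basal matrix and shared patterning. Disc cells with unbalanced chromosome numbers that are kept from dying are known to activate the stress kinase JNK, which acts through the AP-1 factors Jun and Fos on genes for matrix proteases, cytokines and cytoskeletal proteins. Mmp1 is itself a known JNK target, so the sort selected cells with that reporter active, and changes in JNK targets are not independent of it. Cells that leave an epithelium are known to remodel their actin and their adhesion to neighbours and matrix.

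Each value is the log2 signal that the authors' RMA step gave a probe set, and 11983 genes had a probe set with 1 gene symbol. Differences are delaminating minus posterior means, tested with limma over all these genes. A gene is called where its Benjamini-Hochberg adjusted p is under 0.05. Of the compartment genes used to check the labels none was called. The selector gene en lay at 10.24, 11.03 and 10.01 in delaminating and 10.45, 10.64 and 10.53 in posterior cells, in replicates 1 to 3, the order used for all triplets of values. Its neighbour inv lay at 9.56, 8.99 and 9.23 in delaminating and 9.73, 9.54 and 9.67 in posterior cells, and hh, the ligand gene of posterior cells, at 9.55, 10.01 and 9.37 in delaminating and 9.13, 9.20 and 9.0 in posterior cells. ci, the factor gene of anterior cells, lay at 7.77, 7.89 and 8.04 in delaminating and 8.32, 8.36 and 8.32 in posterior cells, against 10.17, 10.12 and 9.62 in anterior cells. The adjusted p was 0.983 for en, 0.617 for inv, 0.422 for hh and 0.46 for ci. The sign of the en difference rested on delaminating replicate 3 and turned without it. asp and Mmp1 were not analysed here, so neither the knockdown nor the reporter's own gene was checked. Anterior replicate 3 stood apart, with correlations of 0.889 to 0.915 with the other arrays against 0.943 to 0.987 among those 8, and it entered this comparison through the shared estimate of spread. Delaminating replicate 2 had the highest of the 3 delaminating signals for 16 of 18 markers of hemocytes, the larval blood cells.

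Delaminating cells had 77 genes higher (0.643% of all genes) and 19 lower (0.159%) than posterior cells. The higher genes had a median log2 difference of 1.52 and the lower genes one of -1.22, and 24 genes rose by at least 2 on the log2 scale. In all 96 genes the values of the groups did not overlap, which held for 22.3% of all genes. The median difference of all genes was -0.0031, and 5.31% of all genes were higher and 4.67% lower at an unadjusted p under 0.05. In these sorted pools fewer cells of a type and less RNA per cell cannot be told apart. The number of calls rose to 185 when only the 6 arrays were fitted (138 higher, 1.15% of genes, and 47 lower, 0.392%), with 91 of the 96 among them. It moved by over 1.5 times whichever single array was left out: 281 without anterior 3, which held all 96. There were 51 without anterior 1, 47 without anterior 2 or delaminating 2, 26 without delaminating 1, 17 without delaminating 3, and 18, 20 and 32 without posterior 1, 2 and 3. Without delaminating 2, 44 of the 96 stayed called, and no difference shrank or grew by over 1.5 times (ratios of 0.780 to 1.22).

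**Figure D1:**
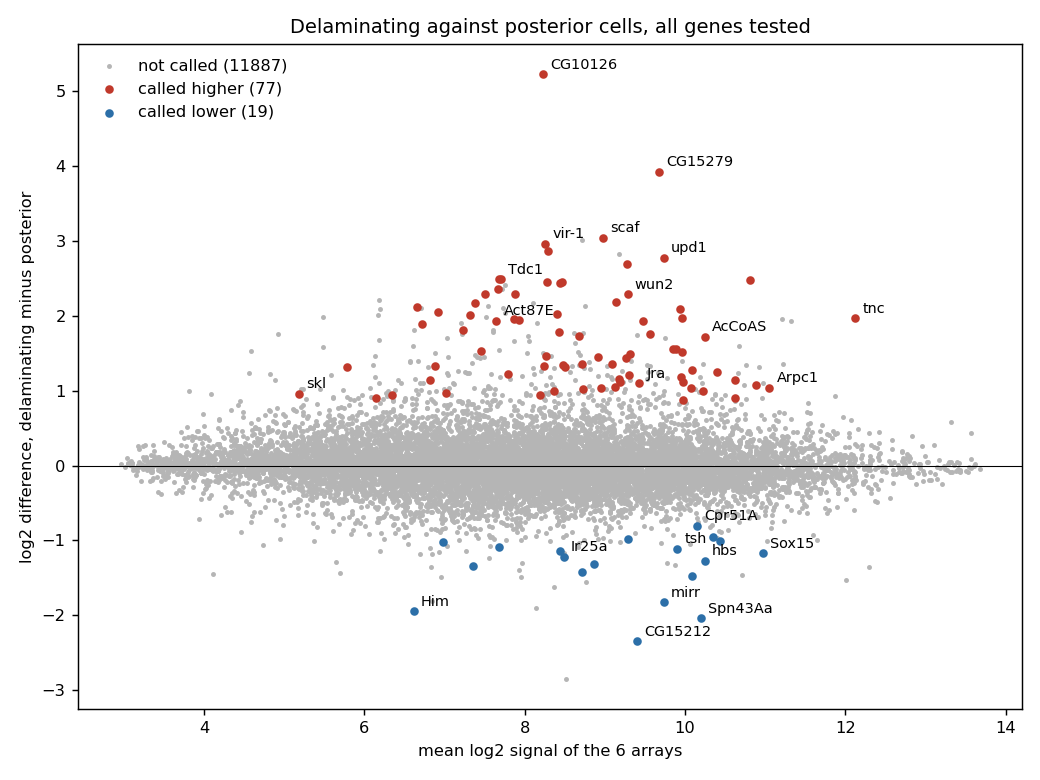
Log2 difference of delaminating minus posterior means against the mean log2 signal of the 6 arrays for 11983 genes (grey, not called; red, 77 called higher; blue, 19 called lower). The called genes spread from 5.22 for CG10126 to -2.34 for CG15212, and the called higher genes reach further from 0 than the called lower genes.

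The strongest rise was that of CG10126, for which no name beyond its number was at hand. Its signals were 10.52, 11.64 and 10.35 in delaminating and 5.08, 5.56 and 6.20 in posterior cells. The posterior mean lay below the lower quartile of these arrays, so no fold is given (log2 difference 5.22 ± 0.58 SE, limma adjusted p = 0.00519). CG15279 had 11.61, 11.73 and 11.56 in delaminating and 6.93, 7.79 and 8.40 in posterior cells and was 15.2-fold higher (log2 difference 3.92 ± 0.39 SE, limma adjusted p = 0.00282). Of the 77 higher genes 32 were known only by number, and the other large rises among them were those of CG15021 (2.87, adjusted p = 0.00142), CG17124 (2.48, adjusted p = 0.0356), CG44085 (2.45, adjusted p = 0.00142), CG10527 (2.45, adjusted p = 0.0151), CG13117 (2.43, adjusted p = 0.0107) and CG31705 (2.29, adjusted p = 0.00807). The other probe set of CG44085 differed by 1.02. flap, a named gene of this size, had 10.69, 10.05 and 11.13 in delaminating and 7.76, 8.01 and 8.04 in posterior cells and was 6.46-fold higher (log2 difference 2.69 ± 0.31 SE, limma adjusted p = 0.00519). Whichever of the 9 arrays was dropped, CG10126, CG15279, CG15021, CG44085 and flap stayed called (adjusted p up to 0.0383). With 1 array left out, CG17124 and CG10527 lost their calls in 6 of 9 fits, CG13117 in 3 and CG31705 in 2. Limma adjusted p ran up to 0.18.

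Called genes of signalling included Jra, the JNK target scaf and several ligand genes, and the sort itself used a JNK target. The JNK target scaf, a serine protease homolog, had 10.02, 11.32 and 10.14 in delaminating and 7.42, 7.44 and 7.50 in posterior cells (log2 difference 3.04 ± 0.34 SE, limma adjusted p = 0.00519). Jra, the fly Jun, had 9.83, 10.03 and 10.07 in delaminating and 8.89, 8.84 and 8.91 in posterior cells and was 2.14-fold higher (log2 difference 1.10 ± 0.18 SE, limma adjusted p = 0.0353). Neither gene's groups overlapped. The JAK/STAT cytokine gene upd1 had 11.24, 10.79 and 11.33 in delaminating and 7.53, 8.51 and 9.01 in posterior cells and was 6.83-fold higher (log2 difference 2.77 ± 0.37 SE, limma adjusted p = 0.0107). upd2, a second cytokine of the family, had 8.80, 8.03 and 9.69 in delaminating and 6.91, 6.94 and 6.80 in posterior cells and was 3.88-fold higher (log2 difference 1.95 ± 0.37 SE, limma adjusted p = 0.0479). Posterior replicates were even for upd2 and spread for upd1. vir-1, a gene induced by the JAK/STAT pathway after viral infection, had 9.15, 10.37 and 9.68 in delaminating and 6.83, 6.53 and 6.96 in posterior cells and was 7.78-fold higher (log2 difference 2.96 ± 0.30 SE, limma adjusted p = 0.00282). Pvf1, a ligand of the PDGF and VEGF type, had 8.12, 8.49 and 8.33 in delaminating and 6.27, 6.23 and 6.43 in posterior cells and was 4.01-fold higher (log2 difference 2.0 ± 0.22 SE, limma adjusted p = 0.00446). Both genes were apart by more than a log2 unit in every pair of arrays. Fs, the fly follistatin that binds activin-type ligands, had 10.38, 10.48 and 10.74 in delaminating and 9.23, 9.44 and 9.57 in posterior cells and was 2.17-fold higher (log2 difference 1.12 ± 0.17 SE, limma adjusted p = 0.02). Idgf3, of the chitinase-like growth factor family, had 8.35, 9.96 and 8.48 in delaminating and 6.44, 7.14 and 5.72 in posterior cells (log2 difference 2.49 ± 0.47 SE, limma adjusted p = 0.0469), with its highest value in delaminating replicate 2, its other probe set differed by 0.44, and it lost its call over 6 arrays (adjusted p = 0.0589).

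Over the lists, 2 of 17 measured genes of the JNK cascade and AP-1 were called higher (against 0.643% of all genes) and 0 lower. Their median was 0.47. Likewise 2 of 25 ligand genes were called higher at a median of 0.49. The groups did not overlap, with delaminating cells higher, for 10 of the 17 JNK genes and 12 of the 25 ligand genes, against 10.7% of all genes. In the JAK/STAT list 3 of 11 were called higher (upd1, upd2 and vir-1), while over 6 arrays upd2 lost its call (adjusted p = 0.0507), and the list median was -0.01, or 0.01 without delaminating 2. Genes called over 6 arrays but not over 9 were named after their values were seen. In these lists they were Ets21C, an ETS factor known as a JNK target, and the adaptor gene Traf4. The others were the Wnt ligand gene Wnt6 and Ilp8, an insulin-like signal of damaged discs. Without anterior 3, limma adjusted p was 0.0238 for Ets21C, 0.0241 for Traf4, 0.0155 for Wnt6 and 0.0552 for Ilp8. Ilp8 had 12.38, 12.23 and 12.26 in delaminating and 9.86, 10.71 and 10.51 in posterior cells, but 10.77, 8.88 and 7.64 in anterior cells, a spread that enters the shared variance (adjusted p = 0.28 over 9 arrays and 0.00961 over 6). Ets21C had 10.93, 10.44 and 11.34 in delaminating and 9.56, 9.30 and 9.79 in posterior cells (adjusted p = 0.0675 and 0.0455 in the same order), Traf4 11.13, 11.33 and 11.38 in delaminating and 9.67, 9.92 and 10.53 in posterior cells (0.0513 and 0.046) and Wnt6 10.18, 10.53 and 10.16 in delaminating and 9.09, 9.36 and 8.69 in posterior cells (0.229 and 0.0348). The other probe set of Traf4 differed by 0.16, against 1.24 at the one shown. Anterior signals of Traf4 were 10.90, 11.15 and 11.39, which overlapped the delaminating ones and lay above the posterior ones. Whichever of the 9 arrays was dropped, scaf, vir-1 and Pvf1 stayed called (adjusted p up to 0.0374). With 1 array left out, Idgf3 lost its call in 8 of 9 fits, upd2 and Jra in 7, Fs in 6 and upd1 in 3. Limma adjusted p ran up to 0.203.

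Several genes for proteins of the cell surface rose, among them pairs of relatives. wun and wun2 encode lipid phosphate phosphatases that are known to guide migrating germ cells by removing extracellular lipid phosphates. wun had 9.45, 9.06 and 9.71 in delaminating and 7.31, 7.52 and 7.34 in posterior cells and was 4.05-fold higher (log2 difference 2.02 ± 0.27 SE, limma adjusted p = 0.0107). wun2 had 10.42, 10.20 and 10.66 in delaminating and 8.22, 8.06 and 8.14 in posterior cells and was 4.89-fold higher (log2 difference 2.29 ± 0.30 SE, limma adjusted p = 0.0107). Posterior signals overlapped anterior ones for both genes (7.51, 7.51 and 6.63 for wun and 8.25, 7.67 and 6.86 for wun2). Of 32 measured tetraspanins, membrane proteins that organize other surface proteins, 2 were called higher (against 0.643% of all genes) and 0 lower. The family median was 0.03, or -0.03 without delaminating 2. Tsp42Ed had 9.87, 11.21 and 10.24 in delaminating and 8.64, 8.45 and 8.98 in posterior cells and was 3.37-fold higher (log2 difference 1.75 ± 0.31 SE, limma adjusted p = 0.0392), with its highest value in delaminating replicate 2, and lost its call over 6 arrays (adjusted p = 0.0523). Tsp42El had 9.19, 9.54 and 9.44 in delaminating and 7.90, 7.91 and 8.29 in posterior cells and was 2.56-fold higher (log2 difference 1.35 ± 0.19 SE, limma adjusted p = 0.0144). Both belong to the cluster of such genes on chromosome arm 2R.

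Further surface and membrane-bound genes were AnxB10, an annexin that binds phospholipids in the presence of calcium, and bero, a protein of the Ly6 type held on the outer membrane. AnxB10 had 9.91, 9.77 and 10.05 in delaminating and 8.58, 8.72 and 8.79 in posterior cells and was 2.32-fold higher (log2 difference 1.21 ± 0.17 SE, limma adjusted p = 0.015). bero had 9.61, 9.26 and 9.77 in delaminating and 7.58, 7.31 and 8.55 in posterior cells and was 3.32-fold higher (log2 difference 1.73 ± 0.30 SE, limma adjusted p = 0.0381), and its anterior signals of 9.27, 9.44 and 9.29 overlapped those of delaminating cells. Single receptor genes of chemosensory families were called as well, Ir87a and Gr94a higher and Ir25a, described below, lower. Ir87a, an ionotropic receptor, had 8.92, 8.92 and 8.69 in delaminating and 6.46, 6.71 and 6.32 in posterior cells, and Gr94a, a gustatory receptor, had 8.12, 8.09 and 8.44 in delaminating and 6.81, 6.44 and 6.84 in posterior cells (adjusted p = 0.00156 and 0.015). moody, a G protein-coupled receptor of septate junctions, had 9.76, 9.77 and 9.91 in delaminating and 7.65, 7.58 and 7.82 in posterior cells and missed the threshold (log2 difference 2.13 ± 0.42 SE, limma adjusted p = 0.0576), and was called with the 6 arrays (adjusted p = 0.00106). Its 3 anterior signals spread over 7.53, 5.40 and 6.21. Whichever of the 9 arrays was dropped, Ir87a stayed called (adjusted p up to 0.0168). With 1 array left out, Tsp42Ed and bero lost their calls in 7 of 9 fits (adjusted p up to 0.196). Those of wun, wun2, AnxB10 and Gr94a were lost in 5 and that of Tsp42El in 4.

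**Figure D2:**
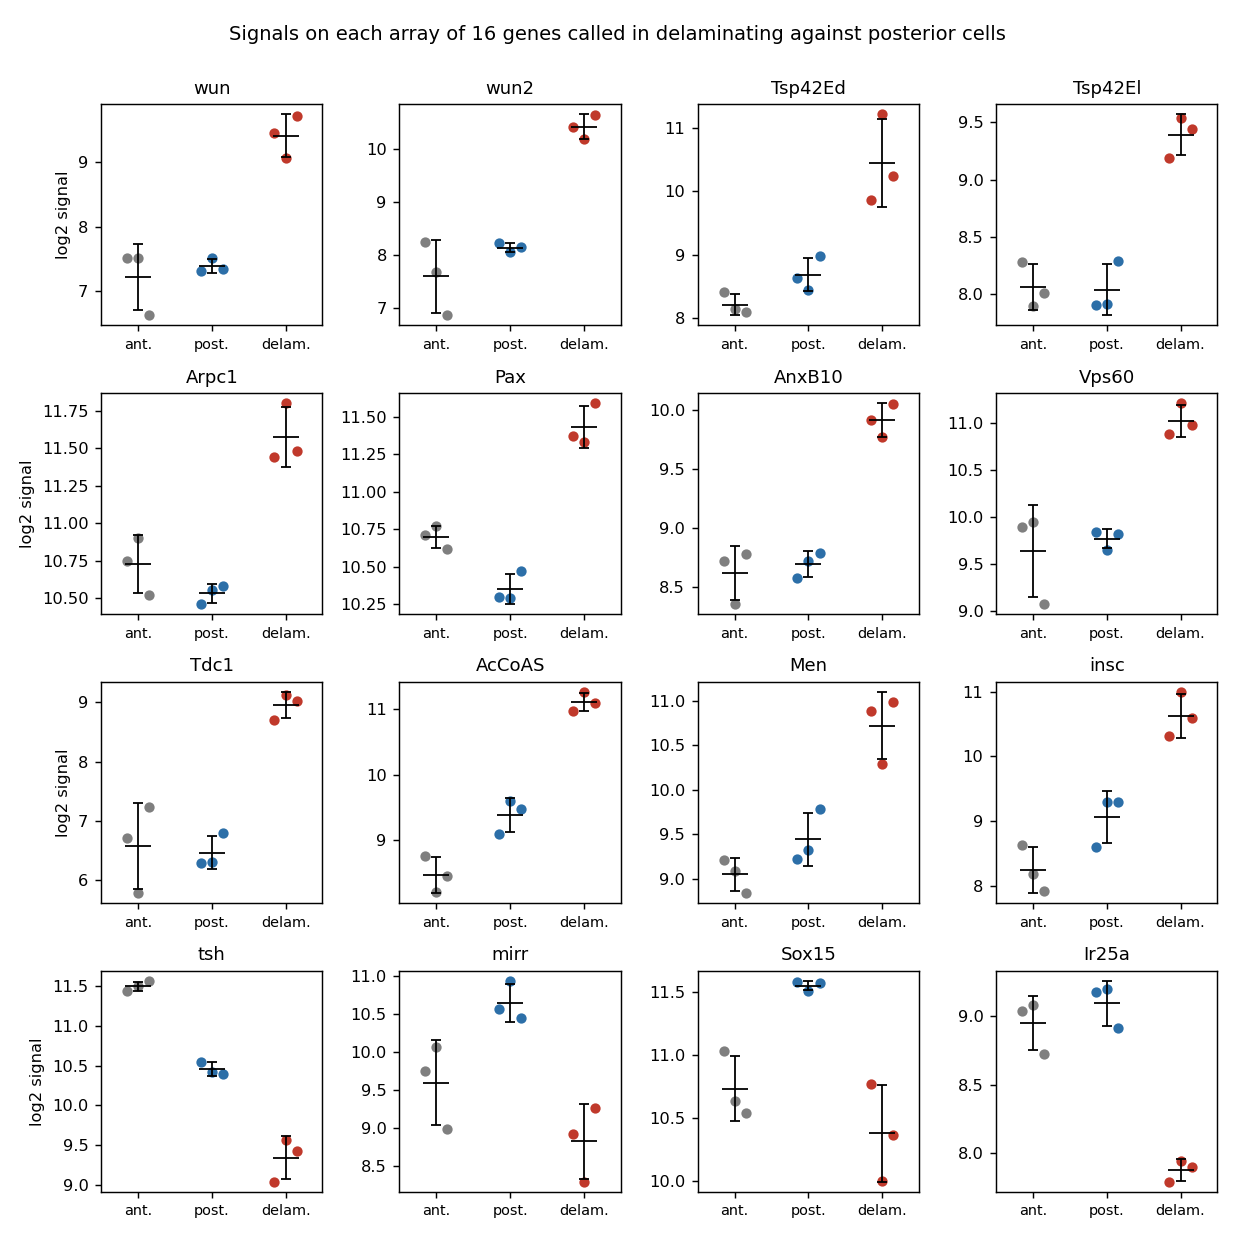
Log2 signals on each array for 16 called genes in anterior (grey), posterior (blue) and delaminating cells (red), with the mean and SD of 3 arrays in black and a separate vertical scale for each gene. Delaminating values lie apart from posterior values in each panel, above them for the first 12 genes and below them for tsh, mirr, Sox15 and Ir25a.

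Genes of actin assembly lay mostly above 0, and the called ones encode subunits of the complex that branches filaments. Of 28 measured genes of actin nucleation and crosslinking, 2 were called higher (against 0.643% of all genes) and 0 lower. In this list 22 lay above 0 and the median was 0.45. The groups were apart, with delaminating cells higher, for 16 of the 28 (57.1%, against 10.7% of all genes), and the median was 0.36 without delaminating 2. Arpc1, a subunit of the Arp2/3 complex that nucleates actin branches, had 11.44, 11.80 and 11.48 in delaminating and 10.46, 10.55 and 10.58 in posterior cells and was 2.06-fold higher (log2 difference 1.04 ± 0.17 SE, limma adjusted p = 0.0363). Arpc3B, another subunit, had 6.55, 6.70 and 6.52 in delaminating and 5.65, 5.57 and 5.86 in posterior cells, with posterior signals below the lower quartile (log2 difference 0.89 ± 0.16 SE, limma adjusted p = 0.0381). The other 4 measured subunits did not pass, at 0.67 for Arpc5, 0.60 for Arpc4, 0.50 for Arpc3A and 0.45 for Arpc2 (adjusted p between 0.155 and 0.722). For Arpc3A the groups overlapped, and its other probe sets lay at -0.02 and 0.21. The activators of the complex in the SCAR/WAVE group had log2 differences of -0.27 for SCAR, -0.22 for Hem, -0.15 for Cyfip and 0.03 for Abi, none called (adjusted p of at least 0.818). The sign for Abi turned without delaminating 2 and also without posterior 3.

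Among genes of straight and bundled filaments, the formin gene dia had 7.91, 8.62 and 8.03 in delaminating and 6.68, 7.25 and 6.97 in posterior cells and fell short of the threshold (log2 difference 1.22 ± 0.24 SE, limma adjusted p = 0.0581). ena, which extends filaments, sn, the fly fascin that bundles them, and Zasp52, an actinin partner, were called over 6 arrays but not over 9. Without anterior 3 they were called too (limma adjusted p = 0.0168, 0.0164 and 0.0152). These genes, the other Arp2/3 subunits and the SCAR group were chosen after their values were seen. ena had 10.54, 10.96 and 10.52 in delaminating and 9.71, 9.75 and 9.59 in posterior cells (adjusted p = 0.0348 over 6 arrays and 0.129 over 9). sn had 10.85, 11.01 and 10.95 in delaminating and 10.17, 10.16 and 10.24 in posterior cells (0.0352 and 0.104), and Zasp52 had 10.99, 11.21 and 10.97 in delaminating and 10.06, 10.32 and 10.20 in posterior cells (0.0348 and 0.273). No delaminating value overlapped a posterior one in these 3 genes. Act87E, a muscle actin gene whose probe set may also match transcripts of related genes, rose to 8.67, 8.46 and 8.70 from 6.42, 6.67 and 6.94 (log2 difference 1.93 ± 0.26 SE, limma adjusted p = 0.0107). Its anterior signals of 8.91, 9.60 and 8.60 overlapped or exceeded the delaminating ones, and the muscle precursor markers were also highest in anterior cells. In delaminating minus posterior cells those markers had a median of -0.40. The part of muscle precursors in the Act87E signal was not tested. With 1 array left out, Arpc1 and Arpc3B lost their calls in 8 of 9 fits (adjusted p up to 0.196) and Act87E in 4.

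Called higher genes with a role in adhesion or matrix included Pax, of the list of integrins and basement membrane, and tnc and mtg, which were not on it. The adhesion gene hbs, described with the muscle precursor markers, was called lower (log2 difference -1.27, limma adjusted p = 0.0465). Pax, the fly paxillin of integrin adhesion sites, had 11.37, 11.33 and 11.59 in delaminating and 10.30, 10.29 and 10.47 in posterior cells and was 2.11-fold higher (log2 difference 1.08 ± 0.15 SE, limma adjusted p = 0.015). tnc, a large secreted matrix protein known to bind integrins, was among the brightest called genes at 13.17, 12.87 and 13.27 in delaminating and 10.77, 11.26 and 11.37 in posterior cells, and was 3.92-fold higher (log2 difference 1.97 ± 0.26 SE, limma adjusted p = 0.0107), with a difference of 0.97 at its other probe set. mtg, a secreted protein that organizes matrix at synapses, had 7.78, 8.13 and 7.93 in delaminating and 5.61, 6.20 and 5.88 in posterior cells, with a posterior mean below the lower quartile (log2 difference 2.05 ± 0.25 SE, limma adjusted p = 0.00807). The list of integrins and basement membrane had 1 of 31 genes called, 21 above 0 and a median of 0.45, with 12 apart and higher and 4 apart and lower (background 10.7% and 11.5%). That median fell to 0.23 without delaminating 2, and 20 of the 31 genes were highest in that array, as 16 of 18 hemocyte markers were. The part of blood cells in the median of the matrix list was not tested. Tig, an integrin ligand gene, had 8.51, 9.58 and 8.65 in delaminating and 6.99, 7.28 and 7.26 in posterior cells (log2 difference 1.74 ± 0.34 SE, limma adjusted p = 0.0576, adjusted p = 0.0329 over 6 arrays), also with its highest value in delaminating 2.

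No gene of the junction lists was called. In the list of adherens junctions and polarity limma called 0 of 23 genes at a median of 0.06, or 0.0 without delaminating 2. It had 1 higher and 1 lower at an unadjusted p under 0.05 and 0 in the fit to 6 arrays. In that list Vinc, the fly vinculin, had 9.39, 9.30 and 9.82 in delaminating and 8.52, 8.79 and 8.51 in posterior cells (log2 difference 0.89 ± 0.22 SE, limma adjusted p = 0.123). Septate junction genes had 0 of 18 called at a median of 0.04, or -0.06 without delaminating 2, with 1 higher at an unadjusted p under 0.05 and in the fit to 6 arrays, which was moody. With 1 array left out, Pax lost its call in 5 of 9 fits (adjusted p up to 0.107), tnc in 4 and mtg in 2.

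Genes of membrane scission and sorting lay mostly above 0. The ESCRT complexes bend and cut membranes at endosomes, at the cell surface and in wound repair. Vps60, an ESCRT-III protein named here because it was called, had 10.89, 11.21 and 10.98 in delaminating and 9.84, 9.65 and 9.82 in posterior cells and was 2.39-fold higher (log2 difference 1.25 ± 0.24 SE, limma adjusted p = 0.0487). Of 29 listed genes of endocytosis and ESCRT, limma called 0 over 9 arrays and 2 higher over 6, with 9 higher and 1 lower at an unadjusted p under 0.05. Of these 29 genes 23 lay above 0, the median was 0.32 (0.30 without delaminating 2), and 13 were apart and higher, or 44.8% against 10.7% of all genes.

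The 3 smallest p in that list belonged to ESCRT-III and its ATPase. shrb, the filament-forming subunit, had 9.99, 10.36 and 10.13 in delaminating and 9.01, 9.35 and 8.88 in posterior cells (adjusted p = 0.104 over 9 arrays and 0.0345 over 6). Vps4, the ATPase that takes the filament apart, had 10.43, 10.74 and 10.57 in delaminating and 9.72, 9.87 and 9.84 in posterior cells (adjusted p = 0.0593 and 0.0455). Vps2 had 10.59, 11.20 and 10.91 in delaminating and 9.93, 9.98 and 10.11 in posterior cells (adjusted p = 0.0668 and 0.0611). The groups were apart for each of these. Vps20 and Vps24 of the same complex had log2 differences of 0.48 and 0.32, the ESCRT-I genes TSG101 and Vps28 0.62 and 0.45, the ESCRT-II genes lsn, Vps25 and Vps36 0.83, 0.20 and -0.12, and the partner protein gene ALiX 0.78, none called and all chosen after their values were seen. The retromer genes Vps35, Vps29 and Vps26 lay at 0.05, -0.08 and -0.19, and dor, of the complex for fusion with lysosomes, at -0.75 (adjusted p = 0.418). The signs for Vps36, Vps29 and Vps35 turned without delaminating 2. The 20 measured Rab GTPase genes had a median of -0.01, or -0.05 without delaminating 2, and 32 genes of the secretory pathway one of 0.02, with 0 called in either, 1 Rab gene each way and 0 secretory genes at an unadjusted p under 0.05, and 0 over 6 arrays. The call of Vps60 was lost without any 1 of anterior 1 and 2, delaminating 1, 2 and 3, posterior 1, 2 and 3 (adjusted p up to 0.21).

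**Figure D3:**
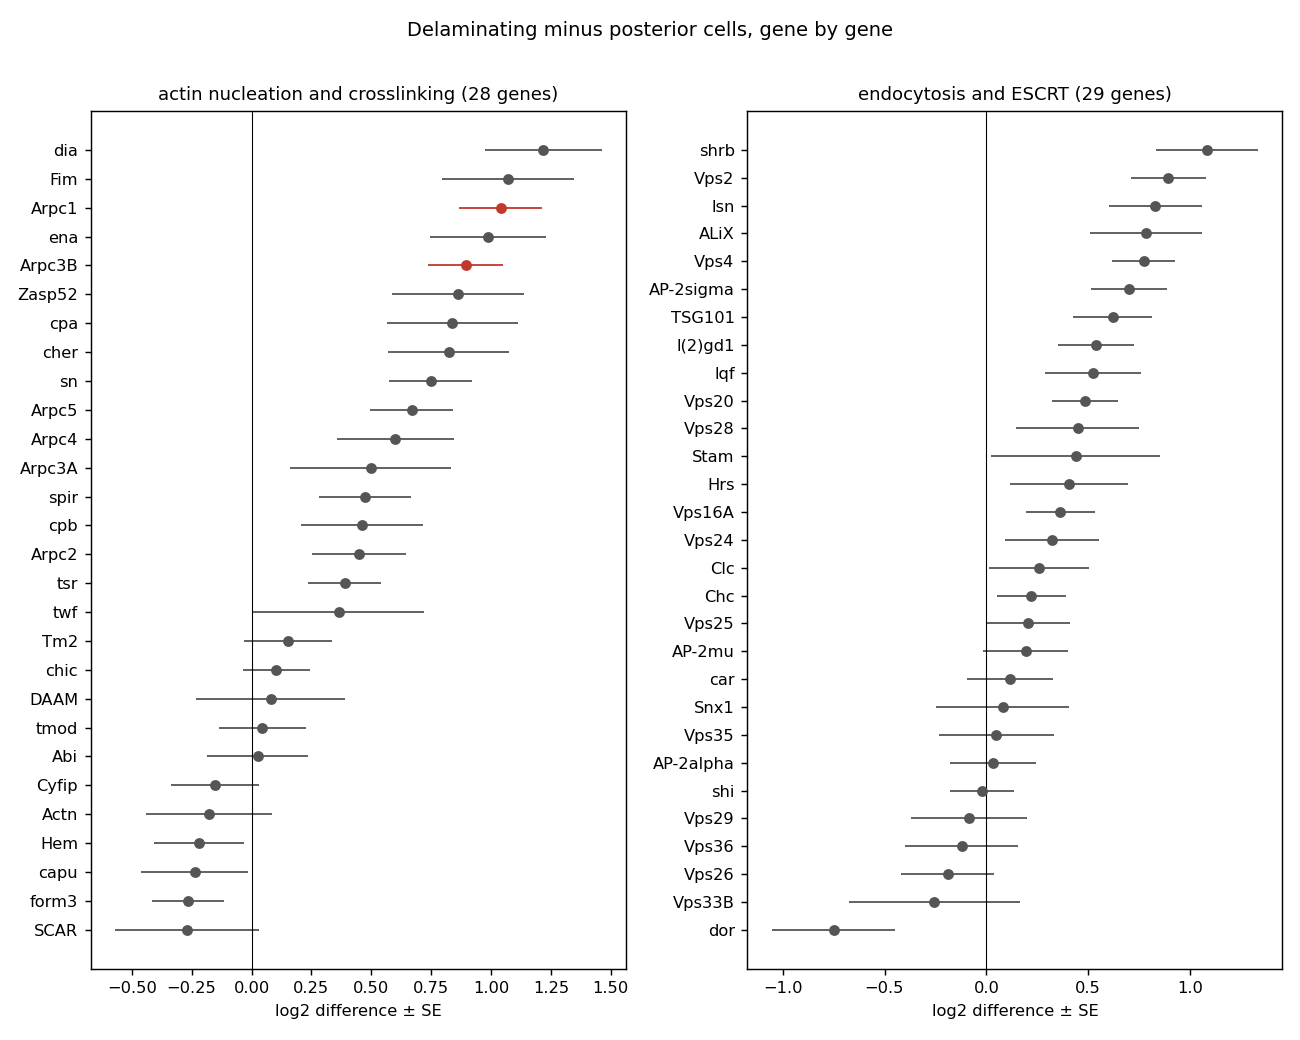
Log2 difference of delaminating minus posterior cells with its SE for 28 genes of actin nucleation and crosslinking and 29 of endocytosis and ESCRT, in order of size (red, called at an adjusted p under 0.05). Arp2/3 subunits lie above 0 in the left panel, with SCAR, Hem and Cyfip below it and Abi close to it, and shrb and Vps2 lie at the top of the right panel with dor at the bottom.

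Proteases and their inhibitors changed in both directions. Sp212, a serine protease gene, had 8.72, 8.62 and 8.61 in delaminating and 6.28, 6.12 and 6.68 in posterior cells and was 4.9-fold higher (log2 difference 2.29 ± 0.24 SE, limma adjusted p = 0.00373). Spn42De, a serpin, had 8.85, 8.68 and 9.05 in delaminating and 7.86, 7.77 and 7.96 in posterior cells and was 1.99-fold higher (log2 difference 1.0 ± 0.18 SE, limma adjusted p = 0.0463), and cer, a small inhibitor of cathepsin proteases, had 11.10, 10.97 and 11.15 in delaminating and 10.11, 10.14 and 10.28 in posterior cells and was 1.86-fold higher (log2 difference 0.90 ± 0.15 SE, limma adjusted p = 0.038). The serpin gene Spn43Aa fell to 8.75, 9.66 and 9.14 from 11.02, 11.66 and 10.98 (4.1-fold, adjusted p = 0.0381). Np, a membrane-bound serine protease of epithelia, fell to 8.23, 8.05 and 8.37 from 9.56, 9.57 and 9.45 (2.48-fold, adjusted p = 0.0381), with -0.93 at its other probe set. The list of serine proteases and serpins thus had 1 gene of 36 called higher (scaf) and 2 lower, at a median of 0.05, or -0.04 without delaminating 2. Sp212 and Spn42De were not on it. Sp7, a listed protease of the melanization cascade, had 8.43, 8.68 and 8.88 in delaminating and 7.77, 7.75 and 7.69 in posterior cells. It was called over 6 arrays (limma adjusted p = 0.0348, 0.124 over 9) and also without anterior 3 (0.0313). Sp7 was chosen after its values were seen. Whichever of the 9 arrays was dropped, Sp212 stayed called (adjusted p up to 0.0336). With 1 array left out, Spn42De and cer lost their calls in 8 of 9 fits (adjusted p up to 0.205) and Spn43Aa and Np in 7.

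The called metabolic genes belonged to different pathways. AcCoAS, which makes acetyl-CoA from acetate, had 10.98, 11.26 and 11.09 in delaminating and 9.09, 9.59 and 9.48 in posterior cells and was 3.3-fold higher (log2 difference 1.72 ± 0.20 SE, limma adjusted p = 0.00628), with anterior signals of 8.75, 8.20 and 8.44 below both. Men, the malic enzyme that yields NADPH, had 10.89, 10.29 and 10.99 in delaminating and 9.22, 9.32 and 9.78 in posterior cells and was 2.43-fold higher (log2 difference 1.28 ± 0.23 SE, limma adjusted p = 0.0441). Tdc1, a tyrosine decarboxylase that makes tyramine, had 8.70, 9.13 and 9.03 in delaminating and 6.29, 6.30 and 6.79 in posterior cells and was 5.62-fold higher (log2 difference 2.49 ± 0.33 SE, limma adjusted p = 0.0107). NT5E-2, an ectonucleotidase that releases adenosine outside the cell, had 8.84, 9.26 and 8.90 in delaminating and 7.11, 8.03 and 7.48 in posterior cells and was 2.75-fold higher (log2 difference 1.46 ± 0.26 SE, limma adjusted p = 0.0381). The carbonic anhydrase gene CAH2 had 6.13, 6.32 and 6.88 in delaminating and 5.35, 4.91 and 5.11 in posterior cells, with posterior signals below the lower quartile (log2 difference 1.32 ± 0.25 SE, limma adjusted p = 0.0465). GstD6, a glutathione transferase, had 7.56, 7.33 and 7.73 in delaminating and 5.84, 6.02 and 6.78 in posterior cells and was 2.51-fold higher (log2 difference 1.33 ± 0.25 SE, limma adjusted p = 0.0465), a call lost over 6 arrays (adjusted p = 0.0534).

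Most listed genes around these did not pass. Among 32 genes of lipid metabolism AcCoAS was the 1 called over 9 arrays, and FASN1, the fatty acid synthase (chosen after its values were seen), at 12.10, 11.78 and 11.97 in delaminating and 11.14, 11.07 and 11.15 in posterior cells, was also called over 6 (adjusted p = 0.0348, 0.13 over 9), at a list median of 0.08, or 0.02 without delaminating 2. The 26 antioxidant genes had Men called and a median of -0.0, or 0.0 without delaminating 2, with Sod3, a secreted superoxide dismutase, at 10.09, 10.15 and 10.09 in delaminating and 10.99, 11.15 and 10.77 in posterior cells (adjusted p = 0.123, 0.0348 over 6). The 34 glutathione transferases had a median of 0.25 with 24 above 0 and 10 apart and higher (29.4%, against 10.7% of all genes). GstE6, chosen after its values were seen, had 9.75, 9.76 and 10.02 in delaminating and 8.43, 8.37 and 8.94 in posterior cells. It was called with the 6 arrays (adjusted p = 0.027, 0.203 over 9). Glycolysis and lactate genes had 0 of 19 called, a median of -0.12, or -0.02 without delaminating 2, and 3 higher and 0 lower at an unadjusted p under 0.05, and 0 over 6 arrays. The hexokinase gene Hex-C in it had 8.68, 9.01 and 8.25 in delaminating and 7.76, 7.23 and 7.85 in posterior cells (adjusted p = 0.114). Citrate cycle genes (median -0.02, or 0.05 without delaminating 2, over 14), respiratory complex subunits (0.07, or 0.17 without delaminating 2, over 68) and genes of amino acid and sugar transport (-0.02, or -0.11 without delaminating 2, over 28) also had 0 called by limma over 9 or 6 arrays, against 0, 4 and 5 genes at an unadjusted p under 0.05. The trehalose transporter gene Tret1-1 had 9.75, 11.16 and 9.91 in delaminating and 8.01, 9.0 and 8.57 in posterior cells (adjusted p = 0.0989). Whichever of the 9 arrays was dropped, AcCoAS stayed called (adjusted p up to 0.0439). With 1 array left out, CAH2 lost its call in 8 of 9 fits, Men, NT5E-2 and GstD6 in 7 and Tdc1 in 4. Limma adjusted p ran up to 0.222.

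Genes of protein synthesis and turnover were measured as whole families. The 16 measured aminoacyl-tRNA synthetases, which charge tRNAs with amino acids, had 14 above 0, a median of 0.34 (0.28 without delaminating 2) and 9 apart and higher (56.2%, against 10.7%). Limma called 0 of them over 9 or 6 arrays, with 4 higher at an unadjusted p under 0.05. TyrRS had 10.61, 10.70 and 10.68 in delaminating and 9.74, 10.05 and 10.05 in posterior cells and CysRS 9.56, 10.20 and 9.44 in delaminating and 8.48, 8.58 and 9.21 in posterior cells (adjusted p = 0.104 and 0.183). Proteasome subunits had 29 of 40 above 0 at a median of 0.11, or 0.21 without delaminating 2. All 8 CCT chaperonin subunits lay above 0 at 0.20. In both families limma called 0 over 9 or 6 arrays, with 1 gene each at an unadjusted p under 0.05. Cytosolic ribosomal proteins (median -0.01, or 0.05 without delaminating 2, over 41 genes), mitochondrial ribosomal proteins (0.02, or 0.20 without delaminating 2, over 69), translation initiation factors (0.07 over 40), the unfolded protein response (0.09, or 0.02 without delaminating 2, over 24), autophagy (0.08, or 0.01 without delaminating 2, over 24) and cytosolic chaperones (-0.03, or -0.06 without delaminating 2, over 15) had 0 genes called over 9 or 6 arrays, with the list medians given in parentheses. At an unadjusted p under 0.05 these 6 lists held 0, 1, 3, 0, 1 and 0 genes in that order.

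**Figure D4:**
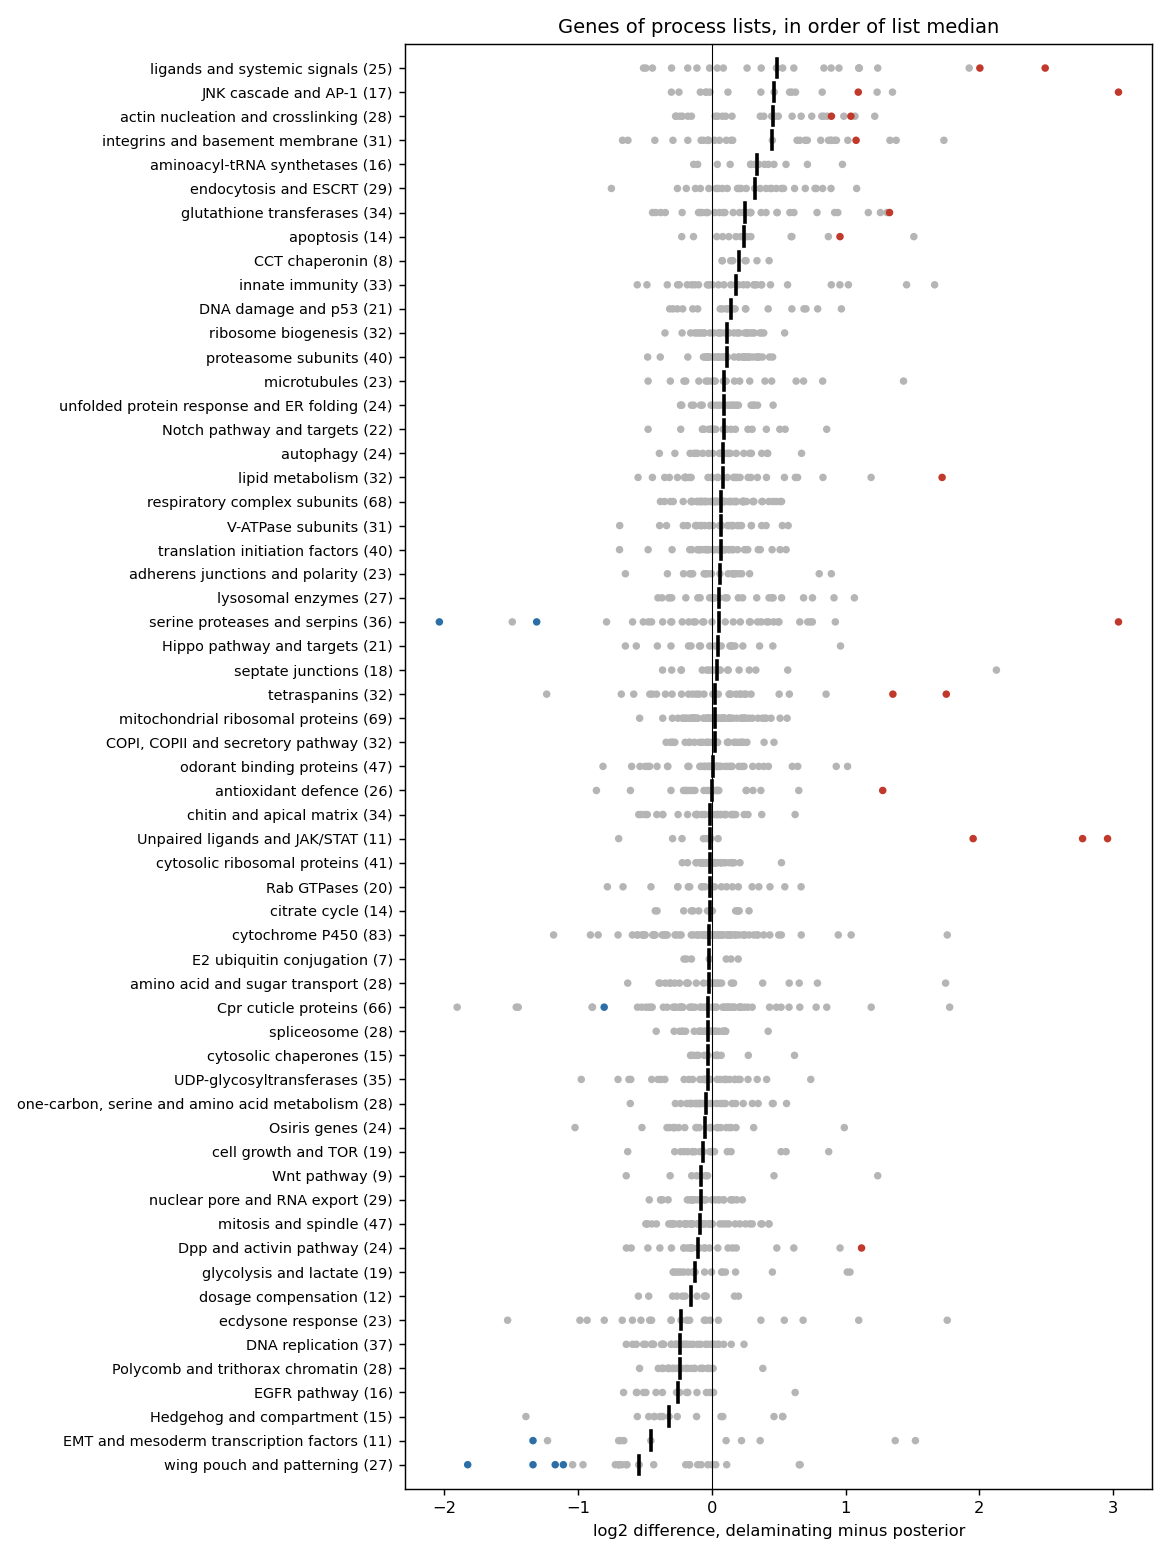
Log2 difference of delaminating minus posterior cells for the measured genes of 59 process lists, with the number of genes in parentheses, the list median as a black bar, called higher genes in red and called lower genes in blue. Lists of signals, JNK, actin and integrins lie at the top with medians from 0.45 to 0.49 and wing patterning at the bottom with -0.54, and 44 of the 59 lists hold no called gene.

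In cell death and DNA damage 2 genes were called. skl, which encodes an antagonist of the apoptosis inhibitor Diap1, had 5.54, 5.83 and 5.60 in delaminating and 4.64, 4.64 and 4.82 in posterior cells, below the lower quartile in both groups (log2 difference 0.96 ± 0.16 SE, limma adjusted p = 0.0381). viaf, named for binding to viral inhibitors of apoptosis, had 10.80, 10.52 and 10.86 in delaminating and 9.62, 9.86 and 9.71 in posterior cells and was 2-fold higher (log2 difference 1.0 ± 0.17 SE, limma adjusted p = 0.0381). In the apoptosis list 12 of 14 measured genes lay above 0 at a median of 0.24, or 0.15 without delaminating 2. Of the 14, skl was called and 4 were apart and higher (28.6%, against 10.7% of all genes). The Bcl-2 family gene Buffy had 9.08, 9.99 and 9.18 in delaminating and 7.52, 8.34 and 7.85 in posterior cells and did not pass (log2 difference 1.51 ± 0.34 SE, limma adjusted p = 0.0925). Both populations carried the caspase inhibitor p35. The list of DNA damage and p53 had 0 of 21 called over 9 arrays, with 5 higher and 0 lower at an unadjusted p under 0.05 and a median of 0.14. Corp, a target and regulator of p53, had 8.98, 8.41 and 8.83 in delaminating and 7.68, 7.70 and 7.92 in posterior cells and was called over 6 arrays (adjusted p = 0.0489, 0.104 over 9). p53 had 9.39, 10.22 and 9.48 in delaminating and 8.72, 8.92 and 9.07 in posterior cells and nbs, of the complex that senses double-strand breaks, 7.74, 7.66 and 7.94 in delaminating and 7.35, 6.98 and 6.93 in posterior cells (adjusted p = 0.335 and 0.25). With 1 array left out, skl lost its call in 8 of 9 fits and viaf in 7 (adjusted p up to 0.196).

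Other called higher genes spanned several roles. insc, an adaptor that orients the spindle in asymmetrically dividing cells, had 10.31, 10.99 and 10.60 in delaminating and 8.61, 9.30 and 9.30 in posterior cells and was 2.95-fold higher (log2 difference 1.56 ± 0.27 SE, limma adjusted p = 0.0381), with anterior signals of 8.63, 8.19 and 7.93. Ptpmeg2, a tyrosine phosphatase gene, had 9.90, 9.97 and 10.06 in delaminating and 8.37, 8.64 and 8.62 in posterior cells and was 2.7-fold higher (log2 difference 1.43 ± 0.25 SE, limma adjusted p = 0.0381). Arc2, whose protein derives from a retroelement and forms capsids, had 9.56, 9.52 and 9.89 in delaminating and 8.55, 8.54 and 8.71 in posterior cells and was 2.07-fold higher (log2 difference 1.05 ± 0.20 SE, limma adjusted p = 0.0465). Glut4EF, a transcription factor gene, was 2.04-fold higher, and a10, of the chemosensory protein family, 2.32-fold (adjusted p = 0.0404 and 0.0357). yellow-e, of the Yellow family, was 2.94-fold, thw 2.55-fold, prage 2.73-fold, Targ1 2.16-fold and Targ2 2.87-fold higher (adjusted p between 0.0147 and 0.0461). Other probe sets gave smaller log2 differences, 0.44 against 1.45 for prage, 0.68 to 0.94 against 1.35 for thw, 0.52 to 1.01 against 1.11 for Targ1 and 0.66 to 0.96 against 1.03 for Glut4EF. Wbp2, a partner of the Hippo effector Yorkie, missed the threshold at 9.08, 9.02 and 9.35 in delaminating and 7.99, 8.33 and 8.24 in posterior cells (log2 difference 0.96 ± 0.19 SE, limma adjusted p = 0.0532, adjusted p = 0.0348 over 6 arrays), while its list of 21 Hippo genes had a median of 0.05, or -0.03 without delaminating 2, and 0 called. The tubulin gene alphaTub85E had 7.72, 8.66 and 8.09 in delaminating and 7.13, 6.16 and 6.89 in posterior cells and the microtubule-severing gene spas 8.97, 9.51 and 9.14 in delaminating and 8.49, 8.59 and 8.65 in posterior cells (adjusted p = 0.106 and 0.229). Their microtubule list had 0 of 23 called over 9 or 6 arrays and 5 higher at an unadjusted p under 0.05. In it 6 genes were apart and higher (26.1%, against 10.7% of all genes). With 1 array left out, Arc2, Glut4EF, prage and Targ1 lost their calls in 8 of 9 fits (adjusted p up to 0.222). Those of insc, Ptpmeg2, a10, thw and Targ2 were lost in 7 and that of yellow-e in 5.

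Among genes of regional identity 4 fell and none rose. Of 27 measured genes of wing patterning, 4 were called lower (against 0.159% of all genes) and 0 higher. In this list 22 lay below 0 and the median was -0.54 (-0.43 without delaminating 2). The groups were apart, with delaminating cells lower, for 14 of the 27 (51.9%, against 11.5% of all genes). mirr, an Iroquois homeobox gene, fell to 8.92, 8.29 and 9.26 from 10.56, 10.93 and 10.45 (3.54-fold, adjusted p = 0.0381), with -1.77 at its other probe set. tsh, a zinc finger gene of proximal regions, fell to 9.04, 9.57 and 9.43 from 10.55, 10.42 and 10.39 (2.16-fold, adjusted p = 0.0283). Its anterior signals of 11.44, 11.50 and 11.56 were higher than both. Sox15, a factor of the wing hinge, fell to 10.77, 10 and 10.37 from 11.58, 11.51 and 11.57 (2.25-fold, adjusted p = 0.0465), with -0.63 at its other probe set, and the T-box gene Doc2 fell to 6.65, 6.61 and 6.78 from 7.96, 7.91 and 8.18 (2.52-fold, adjusted p = 0.0392). The relatives ara of mirr and Doc1 of Doc2 were called lower over 6 arrays but not over 9, and ara was chosen after its values were seen. ara had 8.17, 7.92 and 8.38 in delaminating and 8.98, 9.33 and 9.28 in posterior cells and Doc1 7.74, 7.62 and 8.34 in delaminating and 9.40, 9.04 and 8.95 in posterior cells (adjusted p = 0.0348 and 0.0455 over 6, 0.18 and 0.24 over 9). kn, a factor of the central wing, had 7.23, 7.40 and 7.09 in delaminating and 8.81, 9.02 and 8.05 in posterior cells (adjusted p = 0.0791, 0.0455 over 6). It was also the member with the smallest p of the 15 Hedgehog and compartment genes, whose median was -0.32, with 0 called over 9 arrays and 2 higher and 4 lower at an unadjusted p under 0.05. Doc2 was the 1 called of 11 transcription factor genes linked to epithelial-mesenchymal transition and mesoderm, at a median of -0.46. With 1 array left out, Sox15 lost its call in 8 of 9 fits (adjusted p up to 0.216), mirr and Doc2 in 7 and tsh in 6.

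The other called lower genes were of mixed roles, and 6 were known only by number or letter code. drl, a Ryk-type receptor for Wnt5, fell to 8.60, 9.05 and 8.72 from 9.66, 9.95 and 9.73 (1.98-fold, adjusted p = 0.0381). miple1, a heparin-binding growth factor of the midkine family, fell to 7.45, 7.07 and 6.90 from 8.10, 8.22 and 8.37 (2.13-fold, adjusted p = 0.0465). Ir25a, a co-receptor of the ionotropic family, fell to 7.79, 7.94 and 7.90 from 9.18, 9.20 and 8.91 (2.32-fold, adjusted p = 0.0144). The sulfotransferase gene pip fell to 7.69, 8.55 and 7.79 from 9.64, 9.58 and 9.07 (2.67-fold, adjusted p = 0.0465), though its other 9 probe sets ranged from -1.28 to -0.14. Cpr51A, a cuticle protein gene, fell by 0.80 on the log2 scale with the groups apart (9.67, 9.74 and 9.84 in delaminating and 10.49, 10.59 and 10.60 in posterior cells, adjusted p = 0.0408), the 1 called of 66 Cpr genes, whose median was -0.03, or 0.0 without delaminating 2. Over 6 arrays Cpr66D, at 10.26, 9.40 and 10.28 in delaminating and 11.35, 11.47 and 11.51 in posterior cells, was called too (adjusted p = 0.0348, 0.0927 over 9). Cpr66D was chosen after its values were seen. Genes known only by number or letter code were CG15212 (-2.34, adjusted p = 0.0259), CG43980 (-1.48, adjusted p = 0.0313), CG9897 (-1.15, adjusted p = 0.0398), CG14086 (-1.02, adjusted p = 0.0375), b6 (-1.01, adjusted p = 0.0381) and CG14797 (-0.95, adjusted p = 0.0381). With 1 array left out, miple1, Cpr51A, CG14086, b6 and CG14797 lost their calls in 8 of 9 fits. Those of drl, pip and CG9897 were lost in 7 (adjusted p up to 0.238). CG43980 lost its call in 6, CG15212 in 5 and Ir25a in 4.

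Hormone response and growth lists leaned below 0 without calls. Of 23 ecdysone response genes limma called 0 over 9 or 6 arrays, with 2 higher and 5 lower at an unadjusted p under 0.05. The list median was -0.23. In it 8 genes were apart and lower (34.8%, against 11.5% of all genes) and 3 apart and higher (13.0%, against 10.7%). Cyp18a1, which inactivates ecdysone, had 7.97, 7.68 and 8.66 in delaminating and 5.81, 6.20 and 7.02 in posterior cells (adjusted p = 0.0577), and ImpL2, an ecdysone-inducible inhibitor of insulin signalling, had 11.61, 11.14 and 11.83 in delaminating and 10, 10.85 and 10.44 in posterior cells (0.113). ImpE2, at 10.90, 11.91 and 10.92 in delaminating and 12.75, 13.09 and 12.47 in posterior cells, and ImpL1, at 6.62, 7.47 and 7.17 in delaminating and 8.07, 7.92 and 8.06 in posterior cells, lay on the other side (adjusted p = 0.121 and 0.108). The groups were apart for each of these 4 genes. DNA replication genes had 29 of 37 below 0 at a median of -0.24, or -0.15 without delaminating 2, with 0 called over 9 or 6 arrays, 3 lower at an unadjusted p under 0.05 and 13 apart and lower (35.1%, against 11.5%). Those 3 were PolE1, a DNA polymerase, at 8.74, 8.45 and 8.31 in delaminating and 8.86, 9.48 and 9.07 in posterior cells, and the helicase subunits Mcm2, at 8.82, 8.94 and 8.95 in delaminating and 9.52, 9.25 and 9.70 in posterior cells, and Mcm5, at 10.05, 10.15 and 10.20 in delaminating and 10.53, 10.55 and 10.67 in posterior cells (adjusted p between 0.268 and 0.297). Mitosis and spindle genes had a median of -0.08 over 47, with 0 called over 9 or 6 arrays. Of these, 10 were apart and lower (21.3%, against 11.5% of all genes) and 1 apart and higher. At an unadjusted p under 0.05, 1 was lower, the cyclin gene CycB3 at 10.99, 10.81 and 11.13 in delaminating and 11.47, 11.30 and 11.41 in posterior cells (adjusted p = 0.489).

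Chromatin genes of the Polycomb and trithorax groups, which hold patterning genes off or on, had 26 of 28 below 0 at a median of -0.24 (-0.17 without delaminating 2). Limma called 0 over 9 or 6 arrays, while 2 passed an unadjusted p of 0.05 as lower. Of the 28, 8 were apart and lower (28.6%, against 11.5% of all genes). Pc, which reads the repressive histone mark, had 7.79, 8.15 and 7.90 in delaminating and 8.27, 8.78 and 8.42 in posterior cells (adjusted p = 0.403). The EGFR pathway had 14 of 16 below 0 at a median of -0.25 and 0 called over 9 or 6 arrays. At an unadjusted p under 0.05, 5 were lower, as were 4.67% of all genes. In this pathway 7 were apart and lower (43.8%, against 11.5% of all genes) and 1 apart and higher. Its feedback gene kek1 had 10.77, 10.74 and 10.78 in delaminating and 11.40, 11.29 and 11.58 in posterior cells (adjusted p = 0.103). Genes of the Dpp and activin pathway (-0.10, or -0.16 without delaminating 2, over 24, with Fs called), Notch (0.09 over 22) and cell growth (-0.06, or -0.17 without delaminating 2, over 19) are given by their medians. By chromosome arm the medians lay between -0.04 on X and 0.02 on 2L among the large arms, with 0.672% to 0.988% of each arm's genes called.

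Cell type markers were read beside these groups. The mean signal over the 18 hemocyte markers was 7.65, 9.38 and 7.61 in delaminating and 7.57, 7.87 and 6.98 in posterior cells, high in delaminating replicate 2 alone. He, a hemocyte surface gene, had 8.07, 10.59 and 8.22 in delaminating and 6.69, 7.64 and 5.32 in posterior cells. Hml, which encodes hemolectin and was chosen after its values were seen, had 8.44, 10.39 and 7.52 in delaminating and 6.98, 8.32 and 4.74 in posterior cells. NimB4, a secreted Nimrod protein gene, had 7.61, 10.82 and 7.89 in delaminating and 6.70, 7.87 and 5.65 in posterior cells, and the groups overlapped for Hml and NimB4. Limma called 0 of the 18 over 9 or 6 arrays, although 5 were higher and 2 lower at an unadjusted p under 0.05. Their median difference of 0.44 became 0.14 without delaminating 2. The innate immunity list, which shares genes with blood cells, went from 0.18 to 0.05 over 33 genes with 0 called over 9 or 6 arrays and 3 higher and 1 lower at an unadjusted p under 0.05.

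Muscle precursor markers were higher in anterior than in both posterior populations. Of 9 measured, 2 were called lower in delaminating cells (against 0.159% of all genes) and 0 higher. At an unadjusted p under 0.05, 1 was higher and 3 were lower, and the median was -0.40. zfh1, a zinc finger factor of muscle precursors and blood cells, was the highest member at 7.26, 9.47 and 7.37 in delaminating and 6.27, 7.42 and 6.29 in posterior cells, also with its highest value in delaminating 2 (log2 difference 1.37 ± 0.55 SE, limma adjusted p = 0.413). Him, which keeps muscle precursors undifferentiated, fell to 6.04, 5.79 and 5.09, below the lower quartile, from 6.87, 7.97 and 7.93 (log2 difference -1.95 ± 0.33 SE, limma adjusted p = 0.0381), against 11.85, 12.16 and 11.83 in anterior cells. hbs, an adhesion protein of the nephrin type used in muscle fusion and in epithelia, fell to 9.45, 10.18 and 9.21 from 10.82, 10.91 and 10.92 (2.41-fold, adjusted p = 0.0465, 0.0543 over 6 arrays), against 11.69, 11.94 and 11.72. The mean over the 9 markers ran from 7.15 to 7.70 in delaminating, 7.56 to 8.18 in posterior and 10.32 to 10.61 in anterior cells. Lists of tracheal (0.05, or 0.21 without delaminating 2, over 9 genes), glial (0.13 over 8), neuronal (-0.15, or -0.08 without delaminating 2, over 10), fat body (0.08, or -0.03 without delaminating 2, over 9) and peripodial markers (-0.16 over 6) had 0 called over 9 arrays. At an unadjusted p under 0.05 they held 3, 1, 2, 0 and 1 genes in that order, and over 6 arrays moody of the glial list and Doc1 of the peripodial list were called. With 1 array left out, Him and hbs each lost their call in 7 of 9 fits (adjusted p up to 0.196).

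**Figure D5:**
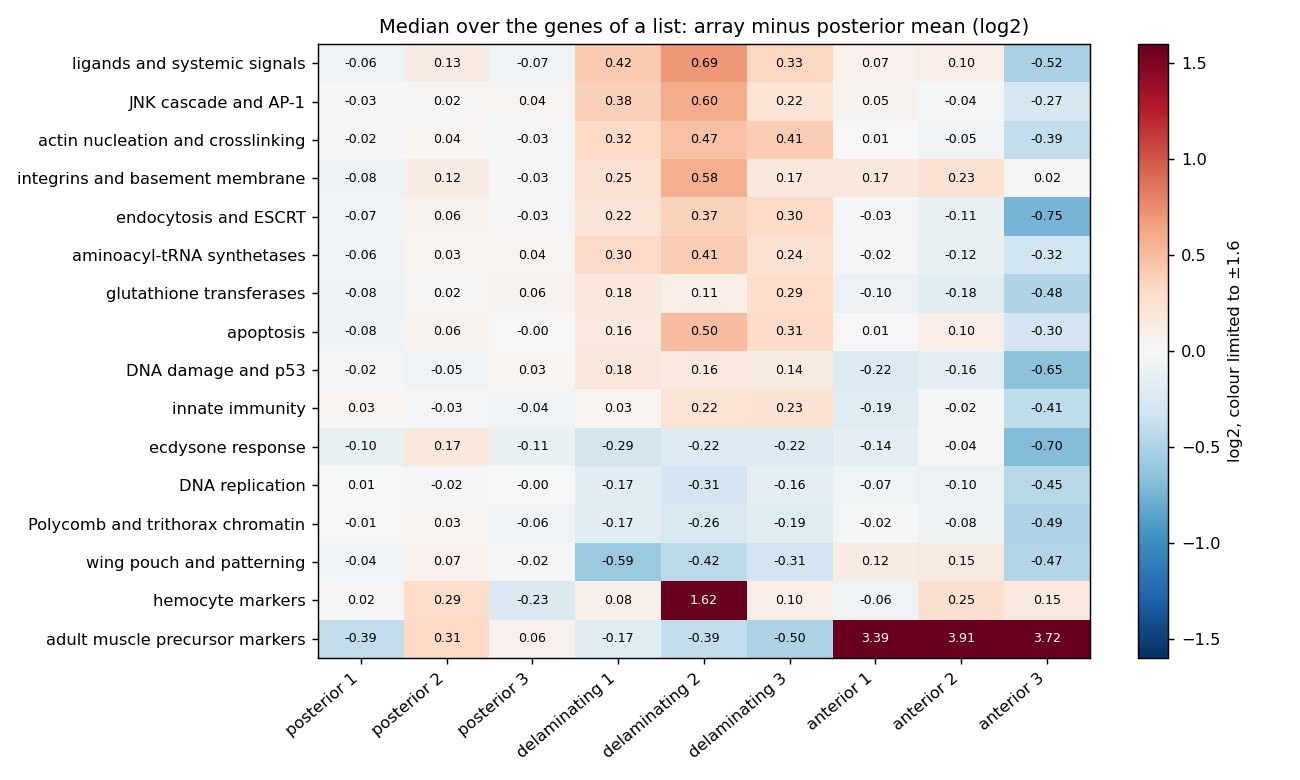
Median over the genes of 14 process lists and 2 marker lists of the log2 signal of an array minus the posterior mean, for each of the 9 arrays (red, above; blue, below). Hemocyte markers stand out at 1.62 in delaminating 2 alone, muscle precursor markers lie at 3.39 to 3.91 in the anterior arrays, and anterior 3 is low in many lists.

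Beside the anterior arrays, most called genes lay outside the anterior range in delaminating cells. Of the 77 higher genes 73 had every delaminating value above every anterior value, which held for 13.2% of all genes, and of the 19 lower genes 17 had every delaminating value below every anterior value (8.05% of all genes). Both counts share the delaminating arrays with the calls. In 13 of the 77 every posterior value lay below every anterior value (6.47% of all genes), and in 17 every posterior value lay above (11.9%). CG1572 was of the first kind, with 10.39, 10.62 and 10.25 in anterior, 8.83, 8.94 and 9.17 in posterior and 11.00, 10.69 and 11.16 in delaminating cells (adjusted p = 0.00282), and Pax, bero and Act87E, described above, were others. AcCoAS was of the second kind, with its lowest values in anterior and its highest in delaminating cells. In 5 of the 19 lower genes every posterior value lay below every anterior value (6.47% of all genes). These were tsh, drl, miple1, hbs and Him. In 4 of the 19 every posterior value lay above (11.9%). The remaining called higher genes known by number were CG6330 (2.19, adjusted p = 0.00142), CG31955 (2.18, adjusted p = 0.00628), CG13786 (1.94, adjusted p = 0.00282) and CG6026 (1.93, adjusted p = 0.00658) at the stronger end, and CG13215, CG14567, CG6753, CG15059, CG7173, CG3036, CG30273, CG42675, CG10098, CG1299, CG10068, CG34288, CG1146, CG17612, CG13124, CG14275, CG30269, CG15554 and CG34325, with log2 differences from 0.88 to 2.11. The other probe set of CG42675 went the other way at -0.21, and those of CG15059 lay at 0.81 and 1.26. Whichever of the 9 arrays was dropped, CG1572, CG6330, CG31955 and CG13786 stayed called (adjusted p up to 0.0374). With 1 array left out, CG6026 lost its call in 1 of 9 fits. The 19 genes after it lost theirs in 4 to 8 fits each (adjusted p up to 0.255).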

How the data were processed

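RNA of sorted wing disc cells was measured on 9 Affymetrix arrays, 3 per population. The values are log2 signals deposited by the authors in the series' value table; RMA is named in the submitters' processing notes, and its version is not given in the sources used here. Array medians ran from 7.48 to 7.57, and the number of arrays limits the precision. Of 18952 probe sets, 183 controls were left out, and 13647 of the other 18769 had 1 gene symbol in the platform annotation, 402 several and 4720 none. The brightest probe set over all arrays stood for each of 11983 genes, 1094 of which had more than 1. Symbols were updated through gene IDs to the RefSeq annotation (11894 matched).

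The 3 groups were fitted together with limma 3.58.1 in R 4.3.3, without a replicate term, and the delaminating minus posterior contrast was adjusted over all genes by Benjamini-Hochberg (called under 0.05). Labels do not say whether replicates came from separate sorts, so p-values measure the spread between these samples, which may be technical. The code was tested on simulated data. A fold is not printed where the mean of a group lay below the lowest of its arrays' lower quartiles (6.05 to 6.36 over all arrays).

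Every called gene could be named, and from each list up to 4 called genes or, with none called, the 3 with the smallest p, plus the highest and lowest member. Genes named outside this rule are marked as chosen after their values were seen. The members and all gene lists were chosen with earlier results of these data known, and 2 misplaced genes were removed from the lists once the files could be read. A further list is not reported here. Alternatives were a fit to 6 arrays, a replicate block, array weights, a robust variance trend, another normalization or probe set rule, a filter on dim genes, a minimum difference and each array left out.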

Additional observations from a re-analysis of the deposited data

How the results depend on the processing

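Counts of called genes moved with several alternatives. The 77 higher and 19 lower genes became 431 and 318 with array weights and 138 and 47 with only the 6 arrays compared. Leaving out 1 array gave 16 to 191 higher and 0 to 90 lower genes, the largest counts without anterior replicate 3. An alternative chosen after seeing the data left out both anterior 3 and delaminating 2 and gave 180 and 90. The lower genes numbered 30 with arrays centred on the median, 33 with the dimmest 25% of genes left out, 34 with an intensity trend and robust variances and 36 after quantile normalization was applied again. Higher genes stayed within 1.5 times of 77 in these 4 settings, and both counts did so with every probe set tested, with the mean of probe sets and with a minimum difference of 1. With the replicate number as a block, 58 higher and 8 lower genes were called, and 47 of the 96 stayed called. Same-numbered delaminating and posterior arrays had deviations correlated at 0.153, 0.181 and 0.0138, and 4 of 6 arrays correlated best with their own number. The labels do not say whether the numbers pair the samples, and the main fit did not pair them. Whether same-numbered samples share a sort was not tested. No called gene changed direction under any alternative run. Among the uncalled genes named, 5 with differences near 0 did. With 1 array left out, en ranged from -0.41 to 0.0935, Abi from -0.194 to 0.216, Vps29 from -0.19 to 0.124, Vps35 from -0.113 to 0.157 and Vps36 from -0.329 to 0.0653. Array weights gave -0.243 for Abi, 0.0782 for Vps29 and -0.0443 for Vps35. Without both anterior 3 and delaminating 2 the values were -0.194 for Abi, 0.124 for Vps29, -0.113 for Vps35 and 0.000654 for Vps36. Of the 96 called genes, 15 stayed called in every alternative in which they were tested. The cause of the other losses was not tested. Signals near background limit the dim genes, whose differences may be understated.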
